A study of Homo sapiens with 6 samples.

Results

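Genes of the proteasome were examined in AC16, a human myocardial cell line made by fusing adult ventricular cells with a transformed fibroblast line, after exposure to fine airborne particles. The members were all genes whose symbol is PSMA, PSMB, PSMC, PSMD, PSME, PSMF or PSMG followed by a number, and POMP. They came to 46 of the 22465 genes measured. A group of 3 arrays carried RNA of cells given 50 µg/mL PM2.5, particulate matter of the fine size class, for 24 h, and 3 arrays carried RNA of control AC16 cells. The titles number the arrays as biological replicates, yet no label names separate cultures. A p-value therefore measures only how these 6 samples spread, which may be technical. The labels do not give the origin of the particles or what the control cells received. Values are log2 expression from RMA, so a difference of 1 is a doubling, and they are given in the order of replicates 1, 2 and 3.

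The proteasome degrades proteins that have been tagged with ubiquitin. Its 20S core is a barrel of stacked rings, with alpha subunits in the outer rings gating the entrance and beta subunits in the inner rings carrying the protease sites. The 19S cap binds ubiquitin chains, removes them and unfolds the substrate with a ring of ATPases, and dedicated chaperones assemble both parts. In leukocytes and after interferon, the subunits PSMB8, PSMB9 and PSMB10 replace the constitutive catalytic subunits to form the immunoproteasome, which favours peptides suited to antigen presentation. Oxidative stress is known to load this system with damaged proteins, and the transcription factors NFE2L1 and NFE2L2 are known to drive proteasome genes through the antioxidant response element.

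Promoters of the members were taken from RefSeq (GRCh38.p14), which held a window for 40 of the 46, and the 250 bases before the start site were searched on both strands for letters only. The antioxidant response element core, TGACNNNGC, was found in 12 of the 40 members (30.0%) and in 13.2% of all 27305 genes with a window. The interferon response element, read as GAAA, any 2 bases and GAAA again, was found in 5 members (12.5%) and in 3.71% of all genes. The ETS letters CCGGAAG were found in 11 members (27.5%, against 10.2% of all genes), and the CCAAT box in 17 (42.5%, against 37.0%). These matches describe the sequence and are not evidence that a factor binds. Shown here are the windows of PSMA4 and PSMB3, which had the lowest and the highest difference of the members between PM2.5 and control arrays. Those of PSMB10 and PSME2 share 1 form of the interferon letters. PSMD12 is shown as a member with a low unadjusted p within array sets, though it was within background. PSMA3, whose unadjusted p there was lower still, is not shown, and it had no match to the antioxidant or interferon letters. Sequences run from 5′ to 3′ and end at the base before the start site. Capitals mark matches to the antioxidant and interferon letters.
PSMA4 (chr15:78540536-78540785, plus strand): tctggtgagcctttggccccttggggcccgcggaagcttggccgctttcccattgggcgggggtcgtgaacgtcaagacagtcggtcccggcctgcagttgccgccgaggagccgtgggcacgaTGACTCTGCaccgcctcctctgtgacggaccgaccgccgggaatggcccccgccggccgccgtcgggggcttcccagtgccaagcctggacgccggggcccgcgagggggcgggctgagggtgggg
PSMB3 (chr17:38752491-38752740, plus strand): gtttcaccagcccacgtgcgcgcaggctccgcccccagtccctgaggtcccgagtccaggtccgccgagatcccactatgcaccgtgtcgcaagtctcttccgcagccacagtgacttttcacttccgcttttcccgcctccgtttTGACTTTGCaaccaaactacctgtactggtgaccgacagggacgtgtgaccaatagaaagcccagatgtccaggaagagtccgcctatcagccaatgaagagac
PSMD12 (chr17:67366578-67366827, minus strand): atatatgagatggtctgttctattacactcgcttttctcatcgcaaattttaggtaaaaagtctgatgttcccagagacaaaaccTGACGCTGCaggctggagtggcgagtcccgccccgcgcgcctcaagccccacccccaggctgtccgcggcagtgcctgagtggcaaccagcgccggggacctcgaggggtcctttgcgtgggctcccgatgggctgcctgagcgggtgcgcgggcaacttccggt
PSMB10 (chr16:67936851-67937100, minus strand): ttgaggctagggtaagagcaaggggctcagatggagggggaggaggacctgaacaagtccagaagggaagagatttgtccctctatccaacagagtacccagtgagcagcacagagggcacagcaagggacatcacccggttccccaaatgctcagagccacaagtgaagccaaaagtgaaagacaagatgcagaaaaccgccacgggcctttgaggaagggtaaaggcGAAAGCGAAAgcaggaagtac
PSME2 (chr14:24146611-24146860, minus strand): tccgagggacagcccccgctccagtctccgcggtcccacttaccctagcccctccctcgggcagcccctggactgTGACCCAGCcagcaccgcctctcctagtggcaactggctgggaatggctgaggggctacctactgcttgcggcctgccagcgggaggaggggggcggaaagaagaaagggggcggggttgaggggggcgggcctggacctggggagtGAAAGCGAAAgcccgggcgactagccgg

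The capitals in PSMA4, PSMB3 and PSMD12 are antioxidant letters, which begin 126, 104 and 165 bases before the start. PSME2 holds both kinds, the antioxidant letters from base 175 and the interferon letters from base 28 before the start, and the 2 matches do not overlap. In PSMB10 the same interferon letters, GAAAGCGAAA, begin 21 bases before the start, and PSMG4 has them 33 bases before its own. PSMA4 has 3 promoter windows in RefSeq, and the one shown holds the antioxidant letters. Another of its windows holds the interferon letters, 240 bases before that start.

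The arrays split into 2 sets by their spike-in signal, and this bears on how the values below are read. The labels name no such split. The mean of 8 spike-in probe sets, which report RNA added in the laboratory, was 10.7 to 10.9 on a high set of arrays, made up of replicate 1 of PM2.5 with replicates 1 and 2 of the control. It was 10.2 to 10.3 on a low set, made up of the other two PM2.5 arrays with replicate 3 of the control. Each set holds arrays of both groups, but the high set has a single PM2.5 array and the low set a single control array. The highest of 23 background probe sets on any array read 5.66, and 4150 genes that exceeded this on 3 or more arrays are called above background. A gene that did not is not shown to be silent. Of 12 measured cardiomyocyte markers, MYL2 and DES were above background, while GATA4, NKX2-5, MYH6, MYH7 and NPPA among others were not. Above background were also 4 of 9 fibroblast, 1 of 8 leukocyte (CD68) and 0 of 5 endothelial markers. The mean level of the fibroblast list was 5.75 to 5.98 on PM2.5 arrays and 5.58 to 6.03 on control arrays, that of the leukocyte list 4.66 to 4.74 and 4.57 to 4.69, and that of the cardiomyocyte list 4.51 to 4.59 and 4.54 to 4.63, and their part in the results was not tested. The number of arrays limits the precision.

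Most proteasome genes were detected, and none passed the test between PM2.5 and control. Of the 46 members, 35 were above background, 32 of them on all 6 arrays. PSMA3 and PSMA5 exceeded it on the 3 low-set arrays only, and PSMD5 on 5 arrays. The 11 members not above background were the immunoproteasome subunits PSMB8, PSMB9 and PSMB10, the tissue-restricted PSMA8 and PSMB11, and PSMC6, PSMD6, PSMD10, PSMD12, PSME4 and PSMG4. In bulk RNA such as this, fewer cells of a type and less RNA per cell cannot be told apart. In limma 0 members differed between PM2.5 and control at an adjusted p under 0.05 (lowest adjusted p = 1), as did 0% of all genes, and 0 members had an unadjusted p under 0.05, against 2.11% of all genes. The PM2.5 and control arrays overlapped for all 46 members, whereas the groups were apart for 5.31% of all genes and 3.28% of those above background. The median log2 change was -0.0069 over the members (22 higher, 24 lower) and -0.0099 over all genes tested. For 38 of the 46 members, and 27 of the 35 above background, the 95% confidence interval of limma lay within a doubling or a halving. Smaller changes could not be told from the spread between arrays, since the half-width of the interval had a median of 0.52 over the members and reached 1.98 for PSMA6.

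**Figure D1:**
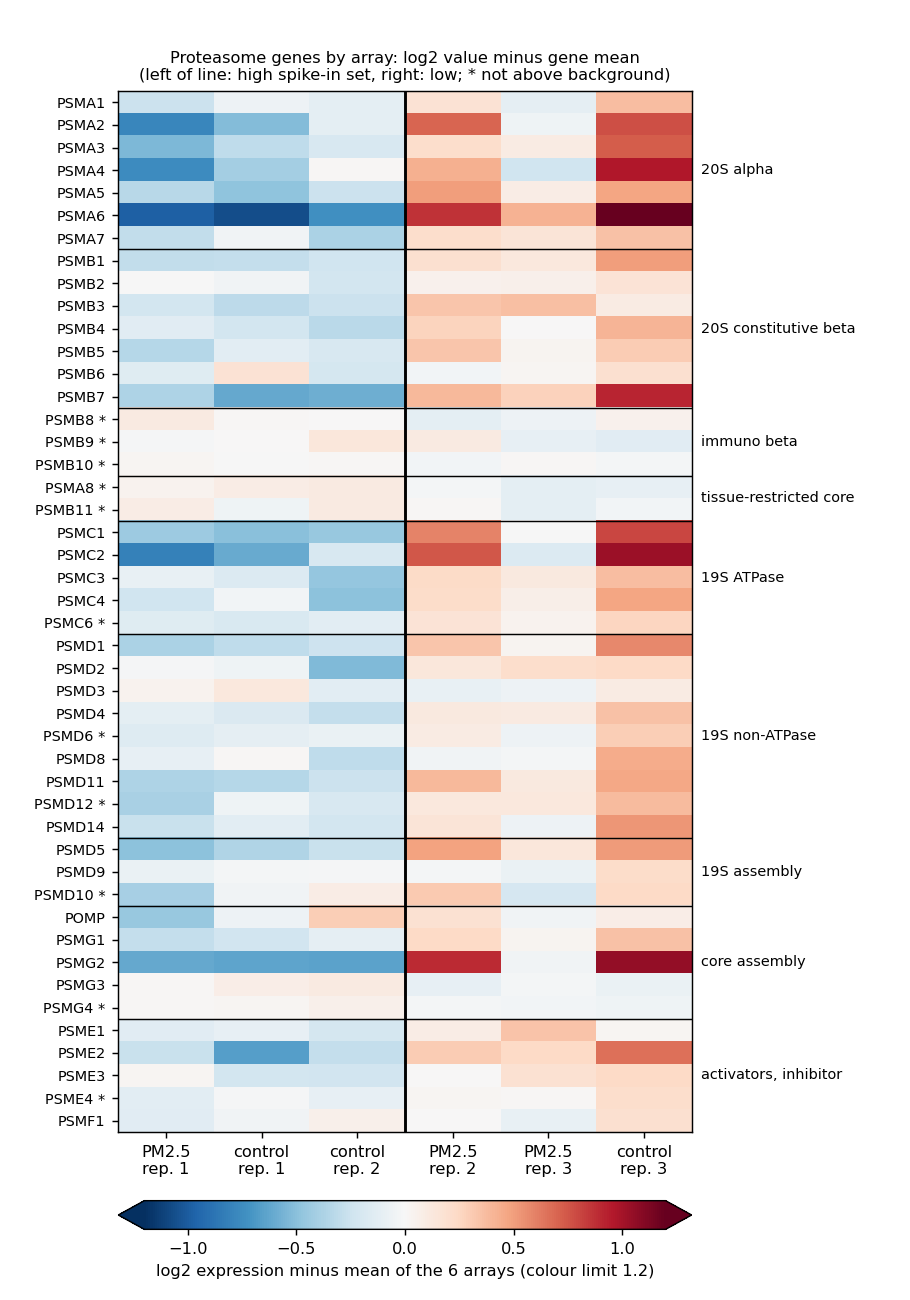
Colour gives the log2 expression of each of the 46 genes (rows, by class) on each array (columns) minus the gene's mean over the 6 arrays. Most core and cap genes were blue on the 3 high-set arrays left of the line and red on the 3 low-set arrays right of it, with control replicate 3 reddest, while the immunoproteasome and tissue-restricted rows stayed pale.

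Alpha subunits of the 20S core had a median range of 1.27 over the 6 arrays, against 0.68 for the constitutive beta subunits and 0.96 for the 19S ATPases. The ATPase figure includes PSMC6, which was within background and ran only from 4.84 to 5.28, while PSMC2 ran from 7.30 to 9.14. PSMA6 read 8.29, 10.1 and 9.69 on the PM2.5 arrays and 8.21, 8.54 and 10.8 on the control arrays. Its 3 low-set arrays were all above its 3 high-set arrays, and the groups overlapped (PM2.5 minus control 0.20, SE 0.81, limma adjusted p = 1). PSMA4 read 6.26, 7.43 and 6.77 after PM2.5 and 6.60, 7.02 and 7.97 in controls, a difference of -0.38 (SE 0.44), or 0.770 of the control level. This was the most negative difference of the 46, and the groups again overlapped. PSMA1 read 6.88, 7.31 and 7.04 against 7.08, 7.03 and 7.52 (difference -0.13, SE 0.20). PSMA5 read 5.49, 6.32 and 5.91 against 5.34, 5.57 and 6.29 (difference 0.17, SE 0.31). In both genes control replicate 3 lay at or near the top. The differences of PSMA2 (-0.088), PSMA3 (-0.15) and PSMA7 (0.052) were smaller than their SE, and 3 of the 7 alpha genes were higher and 4 lower in the mean, with 0 past the test. PSMA8, a subunit used in male germ cells, read 3.79 to 3.95 after PM2.5 and 3.81 to 4.01 in controls, within background.

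Constitutive beta subunits include the catalytic PSMB5, PSMB6 and PSMB7, which give the chymotrypsin-like, caspase-like and trypsin-like activities. PSMB5 read 7.57, 8.24 and 7.95 after PM2.5 and 7.78, 7.72 and 8.21 in controls. Its difference was 0.012 (SE 0.24), with a 95% interval from -0.58 to 0.60. PSMB6 read 11.8, 11.9 and 12.0 against 12.1, 11.8 and 12.2 (difference -0.10, SE 0.18, interval -0.54 to 0.33), and its arrays lay close together. PSMB7 read 9.26, 10.02 and 9.91 against 9.02, 9.04 and 10.5. For this gene the 3 high-set arrays were all below the 3 low-set arrays, and the difference was 0.19 (SE 0.48, interval -0.98 to 1.36). Among the other beta subunits, which carry no active site, PSMB3 had the highest difference of all members. It read 15.1, 15.7 and 15.7 after PM2.5 and 15.01, 15.1 and 15.4 in controls, 0.31 higher or 1.24-fold (SE 0.19, unadjusted p = 0.159, limma adjusted p = 1). The lowest PM2.5 array, replicate 1, lay below control replicate 3, so the groups overlapped. PSMB2 read 6.24, 6.30 and 6.31 against 6.20, 6.03 and 6.41 (difference 0.066, SE 0.12). With PSMB1 (0.013) and PSMB4 (0.091), 6 of the 7 constitutive beta genes were higher in the mean and 0 passed the test. In the fit that blocks on array set 2 of the 7 were higher.

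Immunoproteasome subunits stayed within background in every array of both groups. PSMB8, the counterpart of PSMB5, read 5.32, 5.10 and 5.16 after PM2.5 and 5.23, 5.22 and 5.27 in controls. PSMB9, the counterpart of PSMB6, read 5.10, 5.22 and 5.02 against 5.12, 5.26 and 4.98. PSMB10, the counterpart of PSMB7, read 4.78, 4.72 and 4.77 against 4.75, 4.77 and 4.73. All 18 readings lay under the background threshold of 5.66, and neither the groups nor the array sets were separated in any of the 3. The differences were -0.046 (95% interval -0.23 to 0.14), -0.0051 (-0.23 to 0.22) and 0.0097 (-0.096 to 0.12). A reading within background bounds a level from above, and a true change in a scarce RNA would be understated, so these intervals describe the readings and not the RNAs. PSMB8 and PSMB9 each had 8 transcript clusters, 1 on the primary assembly and 7 on alternative haplotypes of the histocompatibility region, and some of these had the same values. The brightest was used. The lowest clusters averaged 5.01 for PSMB8 and 4.67 for PSMB9, so the choice left both within background. PSMB11, a thymus subunit, read 3.69 to 3.90 after PM2.5 and 3.76 to 3.91 in controls. Of the 8 measured leukocyte markers, PTPRC and CD74 were among those within background, while CD68 was above it on all 6 arrays (8.26 to 10.4).

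**Figure D2:**
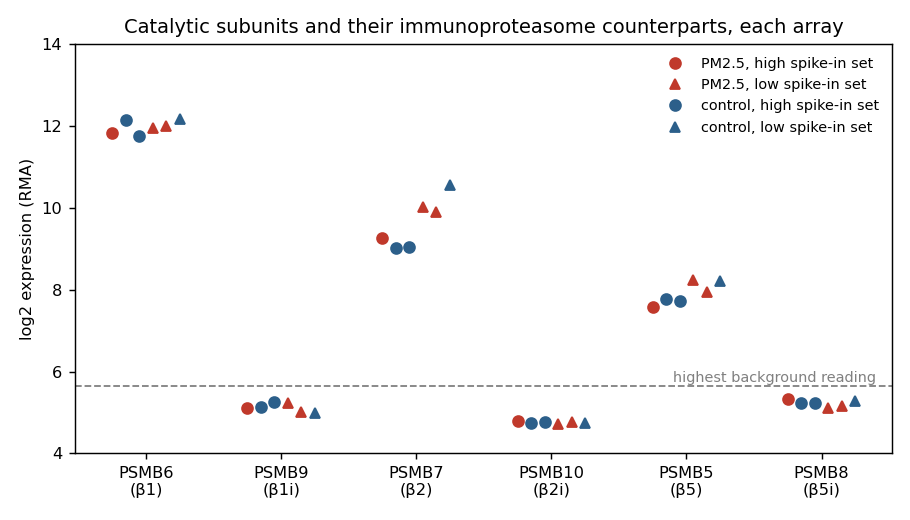
Each point is the log2 expression of 1 array for the catalytic subunits and, next to each, its immunoproteasome counterpart. Circles are high-set and triangles low-set arrays, red is PM2.5 and blue is control, and the dashed line marks the highest background reading of 5.66. PSMB5, PSMB6 and PSMB7 lay above the line on all arrays and PSMB8, PSMB9 and PSMB10 below it. Distances between genes also depend on their probes and are not levels per RNA.

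The 19S ATPases, which unfold substrates and open the core, were represented by 5 genes, and PSMC5 was not analysed here. PSMC3 read 8.25, 8.57 and 8.46 after PM2.5 and 8.18, 7.87 and 8.71 in controls (difference 0.17, SE 0.26). PSMC2 read 7.30, 8.86 and 7.95 against 7.51, 7.92 and 9.14 (difference -0.15, SE 0.56). Both overlapped between groups, and in both the low-set arrays lay above all high-set arrays. PSMC6 read 4.84 to 5.28 over the 6 arrays, within background (difference 0.039, SE 0.14). PSMC1 (0.10) and PSMC4 (0.033) had small positive differences, and 0 of the 5 passed the test.

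Non-ATPase subunits of the 19S cap form its base scaffold and the lid that holds the deubiquitinase PSMD14. PSMD7 and PSMD13 were not analysed here. PSMD2, a scaffold of the base, read 10.85, 10.99 and 11.07 after PM2.5 and 10.81, 10.33 and 11.10 in controls. Its difference was 0.22 (SE 0.24), and control replicate 2 was the lowest array. PSMD4, a ubiquitin receptor, read 6.98, 7.22 and 7.21 against 6.93, 6.81 and 7.46 (difference 0.072, SE 0.20). PSMD14, which cuts ubiquitin from substrates, read 5.74, 6.16 and 5.95 against 5.89, 5.79 and 6.54 (difference -0.12, SE 0.23). PSMD6, a lid subunit, read 5.36, 5.61 and 5.45 against 5.41, 5.43 and 5.81 (difference -0.076, SE 0.13) and exceeded background on control replicate 3 alone. In PSMD14 and PSMD6 that control array was the highest of the 6. Of the 9 genes 3 were higher and 6 lower in the mean, between -0.12 and 0.22, and 0 passed the test.

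Assembly factors comprise POMP and the PSMG chaperones of the core and 3 chaperones of the 19S base. POMP, which matures the core and is consumed by it, read 7.08, 7.72 and 7.50 after PM2.5 and 7.47, 7.83 and 7.62 in controls, a difference of -0.21 (SE 0.21). PM2.5 replicate 1 was the lowest array and control replicate 2 the highest, both of the high set, so POMP did not follow the array sets. PSMG1 and PSMG2 form a heterodimer that starts the alpha ring. PSMG1 read 6.46, 6.99 and 6.78 against 6.52, 6.64 and 7.10 (difference -0.0086, SE 0.21). PSMG2 read 7.14, 8.65 and 7.72 against 7.12, 7.12 and 8.81 (difference 0.15, SE 0.59), with the high-set arrays at 7.12 to 7.14 in both groups. PSMG3 and PSMG4 form the partner heterodimer. PSMG3 read 6.62, 6.51 and 6.59 against 6.69, 6.72 and 6.53 (difference -0.072, SE 0.11), and PSMG4 4.43, 4.39 and 4.37 against 4.43, 4.48 and 4.36, within background. Of the chaperones of the 19S base, PSMD9 read 5.84, 5.89 and 5.83 against 5.89, 5.90 and 6.14 (difference -0.12, SE 0.098, unadjusted p = 0.263). PSMD10, or gankyrin, read 4.90, 5.62 and 5.10 against 5.26, 5.39 and 5.54, within background (difference -0.19, SE 0.19). PSMD5 read 5.58, 6.55 and 6.21 against 5.72, 5.81 and 6.58 (difference 0.078, SE 0.33). None of these 8 genes passed the test, and their groups overlapped.

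Activators open the core without the 19S cap. PSME1 and PSME2 form an interferon-inducible cap, PSME3 a nuclear one, and PSME4 one that acts in chromatin and DNA repair. PSME1 read 9.02, 9.25 and 9.50 after PM2.5 and 9.05, 8.94 and 9.18 in controls (difference 0.20, SE 0.20). PSME2 read 7.15, 7.72 and 7.65 against 6.75, 7.13 and 8.07 (difference 0.19, SE 0.37). The members of this pair had like differences, both within their spread, but PSME2 varied more among the controls. PSME3 read 10.84, 10.82 and 10.99 against 10.60, 10.59 and 11.05 (difference 0.14, SE 0.20), and PSME4 4.60, 4.75 and 4.74 against 4.72, 4.63 and 4.94, within background. PSMF1, an inhibitor of the core, read 6.24, 6.38 and 6.28 against 6.33, 6.43 and 6.56, a difference of -0.14 (SE 0.11, unadjusted p = 0.231). Only its highest PM2.5 array exceeded its lowest control array. None of the 5 passed the test.

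In the fit with both treatment and array set, the median difference of the members was 0.44 between the sets and -0.15 between PM2.5 and control. Arrays of the low set read higher for 38 of the 46 members, and for 33 of the 35 above background, with a median difference between sets of 0.50 for these 35 against 0.17 for all 4150 genes above background and 0.27 for the 3447 protein-coding ones. By class the median was 0.83 for alpha subunits, 0.56 for 19S ATPases, 0.48 for constitutive beta subunits and 0.41 for 19S non-ATPases. It was 0.34 for 19S chaperones, 0.26 for activators and inhibitor, 0.24 for core assembly and -0.073 for the immunoproteasome, which was within background. Among members above background alone it was 0.78 for 4 19S ATPases, 0.47 for 19S chaperones and 0.36 for core assembly. In the set term of the limma fit with treatment, 11 of the 46 members passed as higher in the low set, against 5.4% of all genes, and 0 as lower, against 2.65% of all genes and 6.7% of those above background. Of the 35 above background 9 passed (25.7%), against 20.4% of all genes above background and 23.8% of the protein-coding ones, so the share that passed lay near the background. PSMA3 and PSMA5, which count as above background through the low-set arrays alone, are among the 9, and without them 7 of 33 passed (21.2%). PSMA6 differed by 2.02 (SE 0.25, adjusted p = 0.0265), PSMB7 by 1.11 (SE 0.20, adjusted p = 0.0416), PSMD5 by 0.81 (adjusted p = 0.0284) and PSMD12 by 0.51 (adjusted p = 0.0226). PSMG2 (1.37), PSMC2 (1.26), PSMA2 (1.10) and PSMA4 (1.00) had differences as large but did not pass. PSMD3 (-0.011) and PSMG3 (-0.12), both above background, were the 2 that did not read higher in the low set. The count of members that passed was 0 without any one of PM2.5 replicate 1, PM2.5 replicate 2, control replicate 1 or control replicate 3. It was 3 without control replicate 2 and 11 without PM2.5 replicate 3. Over all 22465 genes the count past the set term was 4, 26, 74 and 1 in the order first named. It was 496 without control replicate 2 and 827 without PM2.5 replicate 3. Of the markers above background, COL1A1 also passed as higher in the low set, by 1.204 (adjusted p = 0.0488), while COL1A2 (1.201), CD68 (1.16), PDGFRB (0.67), MYL2 (0.48), VIM (0.015) and DES (-0.12) did not pass. Their part in the members' difference was not tested. The sets were made from spike-in signal, and what else differed between their arrays was not tested.

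**Figure D3:**
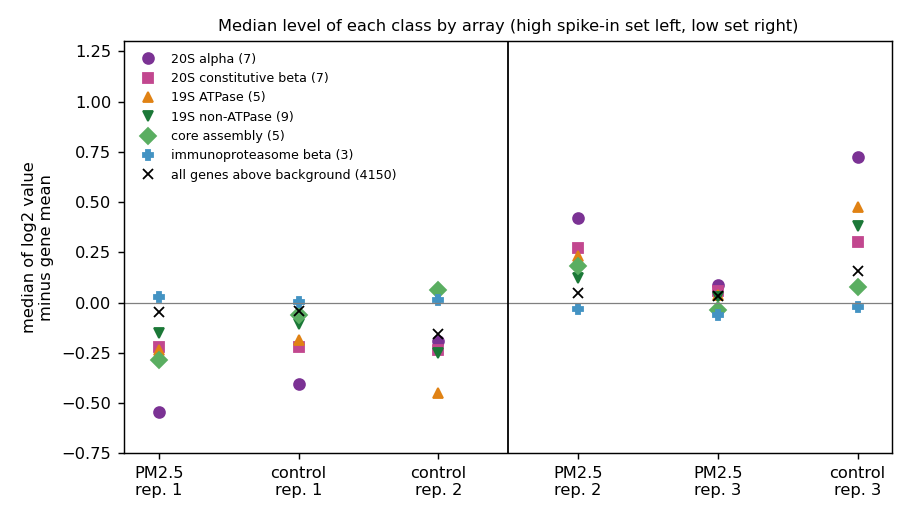
Points give, for each array, the median over a class of the log2 value minus the gene's mean over the 6 arrays, with the number of genes in brackets and crosses for all 4150 genes above background. Alpha subunits ran from -0.54 on PM2.5 replicate 1 to 0.72 on control replicate 3, while the immunoproteasome genes stayed between -0.06 and 0.03 and the crosses between -0.16 and 0.16.

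Within the array sets the members leaned lower after PM2.5, without any passing the test. In the fit that blocked on array set, the median log2 change was -0.15 over the 46 members (37 lower, 9 higher). It was -0.17 over the 35 above background (29 lower), against -0.048 for all 4150 genes above background (2656 lower). Of all 22465 genes 11948 were lower. In limma 0 members passed with the block (lowest adjusted p = 0.862), as did 0% of all genes, and 5 had an unadjusted p under 0.05, against 5.76% of all genes. All 7 alpha subunits were lower with the block (median -0.43). So were all 5 core assembly genes (median -0.17), though PSMG3 (-0.032) and PSMG4 (-0.0011) lay near 0. PSMA4 was lower by 0.56 in the high set and by 0.86 in the low set (block -0.71, SE 0.23, unadjusted p = 0.0258), PSMA3 by 0.30 and 0.57 (block -0.43, SE 0.09, unadjusted p = 0.0042) and PSMD12 by 0.27 and 0.26 (block -0.26, SE 0.056, unadjusted p = 0.00458). PSME4 was lower by 0.075 and 0.20 (unadjusted p = 0.0426), and PSMB3 was higher by 0.062 and 0.25 (block 0.15, SE 0.056, unadjusted p = 0.0389). The adjusted p was 0.862 for each of these 5. Of them PSMD12 and PSME4 were within background on all 6 arrays. The PM2.5 arrays lay below the control arrays within both sets for 16 of the 46 members (34.8%), against 12.4% of all genes, and for 13 of the 35 above background (37.1%), against 17.7% of genes above background and 17.3% of protein-coding ones. These 16 included PSMA1, PSMA2, PSMA3, PSMA4, PSMC2, PSMD1, PSMD11, PSMD14, PSMB1 and PSMG1. The reverse held for PSMB3 alone among the members, against 10.4% of all genes, 6.34% of those above background and 6.73% of protein-coding ones. In the high set this rests on PM2.5 replicate 1, the single PM2.5 array of that set. In the low set it rests on control replicate 3, which read highest of the 6 arrays for 28 of the 35. Without that array the blocked median was -0.057 with 26 of 46 members lower, and -0.058 over the 35 above background against 0.017 for all genes above background. Without any other single array it was between -0.095 (without PM2.5 replicate 3) and -0.21 (without PM2.5 replicate 1), and 0 members passed in each case. After quantile normalization over protein-coding genes the blocked median of the 46 was -0.087, with 30 lower and 16 higher. Of the alpha subunits 6 were then lower, and of the core assembly genes 3. In limma 0 members passed there, and 3 had an unadjusted p under 0.05, as did 1014 of 17085 genes.

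**Figure D4:**
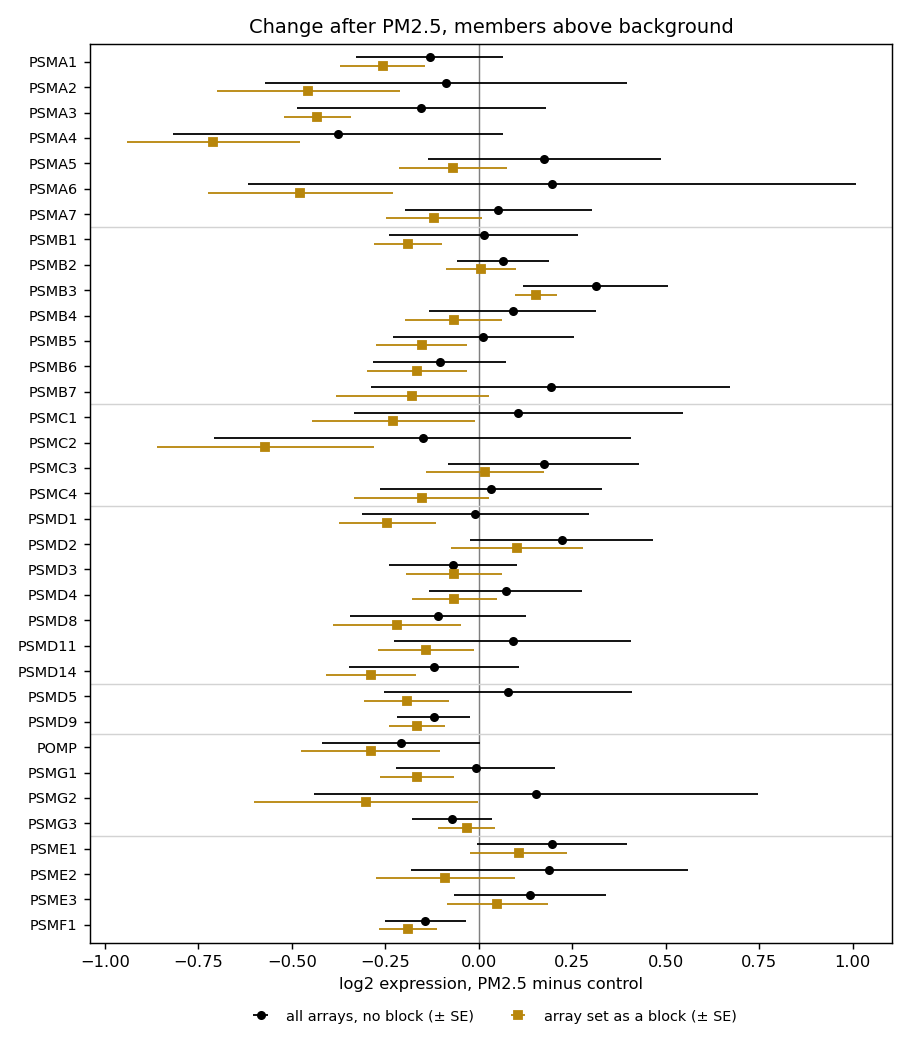
Points give the log2 difference of PM2.5 minus control for the 35 members above background, with bars of 1 SE from limma, black for all arrays without a block and gold with the array set as a block. Most gold squares lie left of their black circles, at a median of -0.17 against 0.033, and the bars are shorter. PSMB2, PSMB3, PSMC3, PSMD2, PSME1 and PSME3 were above 0 in both.

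Other genes of the pathway gave no call either. Of 42 listed genes 35 were measured, 21 above background, and 0 passed limma's test. In the unblocked fit 0 had an unadjusted p under 0.05, and 24 were higher and 11 lower, with a median difference of 0.037. In the fit that blocked on array set 10 were higher and 25 lower, with a median of -0.075, and 2 had an unadjusted p under 0.05 (limma adjusted p = 0.862 for both). These were USP14, a deubiquitinase of the 19S cap (-0.57, unadjusted p = 0.0188), and ECPAS, a proteasome-bound scaffold (-0.17, unadjusted p = 0.0195), both named after their values were seen. ECPAS exceeded the background threshold on only 1 array and is not counted as above background. Between sets 7 of the 35 passed as higher in the low set, against 5.4% of all genes. The 20.4% of genes above background is not a like reference. Only 21 of the 35 were above background, and ECPAS and UBQLN2, which passed, were not. ADRM1, a ubiquitin receptor of the 19S cap, read 8.85, 8.53 and 8.57 after PM2.5 and 8.87, 8.69 and 8.79 in controls. SEM1, a small lid subunit, read 4.39 to 4.54 after PM2.5 and 4.46 to 4.77 in controls, within background. NFE2L1, the transcription factor that restores proteasome genes when the proteasome is inhibited, read 8.11, 8.60 and 8.85 against 8.13, 7.69 and 9.11 (difference 0.21, unadjusted p = 0.632). Control arrays lay both below and above all PM2.5 arrays of NFE2L1, and its 3 low-set arrays were the highest. UBB, a polyubiquitin gene, read 9.04, 9.33 and 9.23 against 9.01, 9.09 and 9.34. SQSTM1, a ubiquitin-binding autophagy receptor, read 7.62, 7.61 and 7.70 against 7.61, 7.58 and 7.61. Neither of these differed beyond its spread.

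Partners of the immunoproteasome in antigen presentation were mixed in level. IRF1, the interferon-induced factor that drives PSMB9, read 4.27 to 4.41 after PM2.5 and 4.35 to 4.54 in controls, and TAP1, a peptide transporter, 5.08 to 5.14 against 5.06 to 5.26, both within background. TAP2 read 5.74, 5.75 and 5.80 against 5.82, 5.56 and 5.78. B2M, the light chain of class I molecules, was far above background and followed the array set, at 9.58, 11.6 and 11.1 after PM2.5 and 9.66, 10.3 and 11.9 in controls (set difference 1.83, limma adjusted p = 0.0284). In the unblocked fit the pathway genes with the lowest unadjusted p were SEM1 (0.156), DDI1 (0.198), UBA1 (0.249), UBA6 (0.254) and UBQLN4 (0.295), and each had groups that overlapped.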

How the data were processed

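Total RNA of 6 AC16 samples was hybridised to Affymetrix arrays. The deposited values are log2 expression made by the authors with RMA, per the submitters' processing notes. The version of RMA and the genome build are not given in the sources used here. Of 67528 transcript clusters in a table of 70523 rows, 23781 had 1 gene symbol in the platform annotation. The cluster with the highest mean stood for a gene, which gave 22465 genes and 46 members, of which 44 had 1 cluster. PM2.5 and control were compared with limma 3.58.1 in R 4.3.3 (lmFit, then eBayes allowing a trend with intensity). Tests were two-sided, p-values were adjusted over all genes by Benjamini-Hochberg, and the threshold was 0.05. A second fit blocked on array set. The array sets were split at the widest gap of the spike-in mean. The test was checked on simulated data. It called 80 of 100 genes given a log2 change of 1, 93 of 100 given 2, and 6 of 22265 given 0. These shares are not the power for the members, whose 95% intervals had half-widths of up to 1.98. Values are given for the catalytic pairs, the activators, the core assembly genes and the 2 lowest-p members in each direction of a class. Of the pathway, the 5 lowest-p genes and a fixed set are named. The members, lists and tests were chosen with earlier results of these data known. The labels do not say whether arrays of the same number were paired. Deviations of same-numbered arrays from their group means correlated at 0.78, -0.65 and 0.77 over genes above background. For any PM2.5 and control array the correlation was positive within an array set (0.77 to 0.83) and negative across sets (-0.92 to -0.55). It followed the sets, so it cannot decide whether the numbers pair the samples. Alternatives were other normalizations, filters, blocks, weights, the mean of a gene's clusters and leaving out each array.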

Additional observations from a re-analysis of the deposited data

How the results depend on the processing

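Over 18 alternatives, 0 members passed limma's test in any, and 0 of all genes did, while 473 genes had an unadjusted p under 0.05 in the unblocked comparison of all arrays. Of these alternatives, 1 was chosen after the data were seen, the array set as a block among genes above background. At an unadjusted p under 0.05 the members numbered 0 to 11, the highest with array weights. Those weights, 6.03 for control replicate 1 and only 0.226 for control replicate 3, act on every gene. The count of all genes at that cutoff is not set beside it here, so the 11 cannot be read as particular to the members. The median log2 change of the members was 0.20 with array weights (33 higher, 13 lower), and between -0.088 (without control replicate 2) and 0.17 (without control replicate 3) when each array was left out. The direction of most members was not stable: of 804 values of single members 138 had another sign than in the unblocked comparison of all arrays, 0 of them called, and 9 members kept their sign in every alternative in which they were tested (15 for PSMA8, 16 for PSMD10, 18 for the others). These were POMP, PSMA8, PSMD3, PSMD9, PSMD10 and PSMF1, lower, and PSMB3, PSMD2 and PSME1, higher. Some alternatives, such as the replicate block or leaving out dim genes, keep each member's difference as it is and could not change its sign. When arrays were left out of the fit that blocks on array set, PSMA8 (-0.056 to 0.023), PSMD3 (-0.18 to 0.045) and PSMD2 (-0.071 to 0.28) took both signs. The split of 22 higher and 24 lower became 26 and 20 after centring the arrays or a further quantile normalization, and 17 and 29 after quantile normalization over protein-coding genes. Left-out arrays gave 10 and 36 (without PM2.5 replicate 2 or control replicate 2) to 34 and 12 (without control replicate 3). With the replicate number as a replicate block, 0 members passed. The median stayed at -0.0069, which was fixed in advance, since this block leaves each difference between group means unchanged. Whether the numbers pair the samples is not known. PSMA8 and PSMB11 were not tested where the dimmest genes were left out. The background readings limit the 11 dim members, the immunoproteasome among them. The cause of these shifts was not tested.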

Other observations

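Rows that share a name with the members but fall outside the symbol rule behaved in different ways. The antisense RNAs PSMA3-AS1, PSMD5-AS1, PSMD6-AS2 and PSMG3-AS1 were within background on every array. PSME2P2, annotated as a pseudogene of PSME2, read 7.39, 8.20 and 8.23 after PM2.5 and 7.27, 7.03 and 8.68 in controls, and PSME2 itself read 7.15, 7.72 and 7.65 against 6.75, 7.13 and 8.07. Whether their probes also detect each other's RNA was not tested. PSME3IP1, a partner of PSME3, read 7.30, 7.90 and 7.91 against 7.38, 7.20 and 8.40. It was higher in the low set by 0.85 (limma adjusted p = 0.0376), where PSME3 differed by 0.26 and did not pass. PSMC3IP, a meiotic recombination factor with no role in the proteasome, read 5.08 to 5.21 after PM2.5 and 5.20 to 5.23 in controls, within background. None of the 7 passed the test between PM2.5 and control.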
